A study of Homo sapiens with 6 samples.

Results

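A set of 453 accessible regions carried a called DNase-seq peak in every library of A549 cells given dexamethasone, in no library of cells given the vehicle, and lay more than 10 kb from the nearest site called in all 6 libraries. A549 is a human lung adenocarcinoma line. In DNase-seq, nuclei are digested with DNase I, an enzyme that reaches DNA where chromatin is accessible, and the cut sites are sequenced. Cells grown to near confluence had received 100 nM dexamethasone, a synthetic glucocorticoid, for 1 h (3 libraries) or 0.02% ethanol, its vehicle, for 1 h (3 libraries). All 6 libraries were of this 1 line. The labels leave unsaid whether the libraries of a treatment were grown as separate cultures, and their spread may therefore be technical only. To find the set, overlapping peaks of the 6 lists (1 bp or more in common) were joined, which gave 81216 regions, each called in those libraries whose peaks it contained. Of these, 39934 were called in all 6 libraries and are termed constitutive, and 897 were called in 3 of 3 dexamethasone and 0 of 3 ethanol libraries (dexamethasone-only). The 453 regions are the 50.5% of dexamethasone-only regions whose centre lay over 10 kb from the centre of the nearest constitutive region (far), and the other 444 lay closer (near). The calls that chose the regions are therefore no result. Where a library had no peak, its signal was below the peak caller's threshold, and the site may still have been accessible.

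The glucocorticoid receptor is a transcription factor of the nuclear receptor family that enters the nucleus once it has bound hormone and binds DNA as a dimer. Most of its binding falls in chromatin that other factors, such as AP-1 and C/EBP proteins, already keep accessible, and at a smaller group of sites the bound receptor recruits remodelling complexes and accessibility increases. Genes and sequence at the regions are not given here, since the reference tables used were of another genome build than the hg19 coordinates of the peaks. Regions are named by chromosome and position.

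The lists held 58281 to 61344 peaks, and no library stood apart: any pair shared 69.9% to 76.0% of the regions called in either. The files hold no read counts, so sequencing depth is unknown. Each peak carries the caller's fold enrichment at its summit, a ratio over that library's own background estimate, and a −log10 q. The strength of a peak is given below as the percentile of its −log10 q within its own list, so that lists can be set side by side.

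Far from constitutive sites, dexamethasone-only regions outnumbered their mirror image, but by less than close to them. Of 24295 merged regions more than 10 kb from a constitutive one, 453 (1.86%) were dexamethasone-only and 337 (1.39%) were ethanol-only, that is, called in 3 of 3 ethanol and 0 of 3 dexamethasone libraries. Over all merged regions these shares were 1.10% and 0.662%. Among the 16987 other non-constitutive regions, within 10 kb, 444 (2.61%) were dexamethasone-only and 201 (1.18%) ethanol-only. There were thus 1.34 dexamethasone-only regions per ethanol-only region far from constitutive sites and 2.21 close to them, and the ratio close to them was the larger in 15 of 15 alternative settings that gave both. The far ratio depended on the rule for a call. With 1 library left out it was 0.684 (without ethanol replicate 1), 0.956 (without ethanol replicate 2), 1.01 (without ethanol replicate 3), 1.09 (without dexamethasone replicate 2), 1.42 (without dexamethasone replicate 1) or 1.35 (without dexamethasone replicate 3). None of these ratios sets the treatments on an equal footing. Without an ethanol library, ethanol-only regions need 2 calls and dexamethasone-only regions still 3. The latter then need to lack a call in 2 ethanol libraries instead of 3. Without a dexamethasone library the reverse holds. How far this moved the ratios in either direction was not tested. Far ethanol-only regions became 898, 630 and 666 without ethanol replicates 1, 2 and 3, and far dexamethasone-only regions 614, 602 and 671. Without dexamethasone replicates 1, 2 and 3, far dexamethasone-only regions became 732, 688 and 863, and far ethanol-only regions 514, 633 and 641. The set of constitutive regions changes in each of these settings as well. What raised the counts was not tested. Treating equally numbered libraries as pairs, and asking for a call in the dexamethasone library alone in at least 2 of 3 pairs, gave 1972 far dexamethasone-only and 2339 far ethanol-only regions, a ratio of 0.843. No p-value is attached to these counts.

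The calls around this set were graded. Far from constitutive sites, 552 further regions had peaks in 3 dexamethasone libraries and 1 ethanol library, and 1457 in 3 and 2 of them. The opposite arrangements held 799 and 2299 regions. A call in 2 dexamethasone libraries alone was found for 967 far regions and a call in 2 ethanol libraries alone for 1203. In each of these 3 pairs of counts the ethanol side was the larger, unlike the 453 against 337 fully separated regions.

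Most far dexamethasone-only regions were weak peaks, with a tail of strong ones. Their median percentile was 27.6, 22.96 and 24.4 in dexamethasone replicates 1 to 3, so the typical member sat in the weaker part of each list. Far ethanol-only regions had medians of 17.8, 18.4 and 18.8 in ethanol replicates 1 to 3, below every dexamethasone library. Peaks above the 50th percentile made up 62, 33 and 57 of the 453 members in the 3 dexamethasone libraries, and 6, 2 and 6 of the 337 far ethanol-only regions in the ethanol libraries. Averaged over libraries, 44 members (9.71%) lay above the 50th percentile, against 0 far ethanol-only regions, whose highest mean was 46.0. The strong tail was not particular to far regions. Of the 444 near dexamethasone-only regions, 46 lay above the 50th percentile on average, and 91, 49 and 48 in dexamethasone replicates 1 to 3. These values come from the contrast that chose the regions and are given as a description. At the other end, 120 members (26.5%) lay at or below the 25th percentile in all 3 libraries, and 44 had a −log10 q under 5 in their weakest library. The libraries ranked members only loosely alike, with Spearman coefficients of 0.52 to 0.57 between pairs of libraries over the 453 regions, a description of regions that all had to be called in these libraries. Dexamethasone replicate 1 gave the highest percentile for 176 members, replicate 3 for 167 and replicate 2 for 110.

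**Figure D1:**
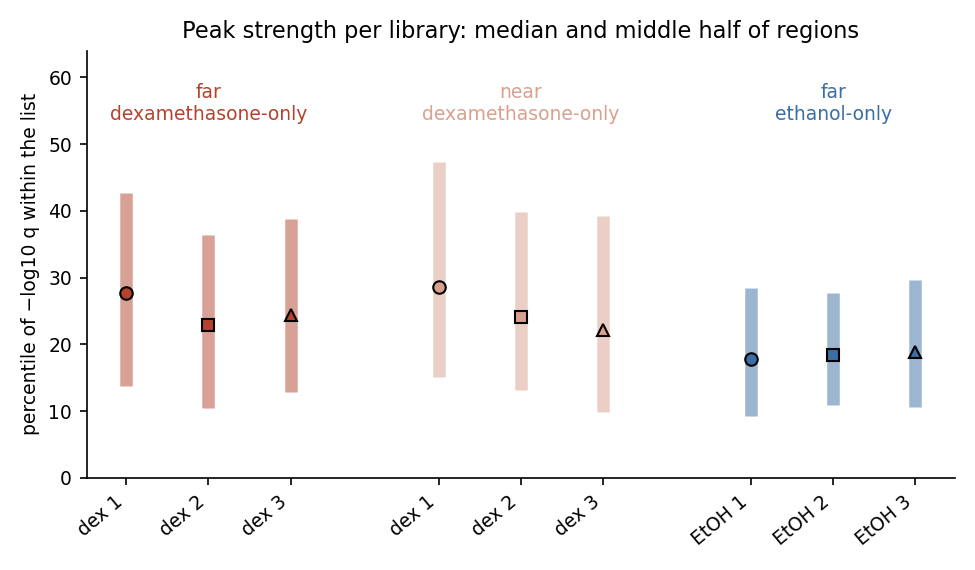
Percentile of −log10 q within each list (vertical axis) for far dexamethasone-only, near dexamethasone-only and far ethanol-only regions, 1 column per library; symbols are medians and bars run from the 25th to the 75th percentile of regions. The medians of the far dexamethasone-only regions lie between 22.96 and 27.6, and those of the far ethanol-only regions between 17.8 and 18.8.

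Far and near dexamethasone-only regions differed in strength by less than the spread between libraries. Near dexamethasone-only regions had median percentiles of 28.6, 24.1 and 22.2 in replicates 1 to 3. The difference, far minus near, was 0.049 ± 1.9 percentile points (SD, n = 3 libraries, exact two-sided sign-flip permutation p = 1, with 0.25 the smallest possible), and far regions were the stronger in 1 of 3 libraries. Fold enrichment differed in every library. The median fold was 5.98, 5.66 and 5.61 for far regions and 5.19, 4.95 and 4.79 for near ones, a difference of 0.778 ± 0.059 (SD, n = 3, exact sign-flip permutation p = 0.25, the smallest possible). This difference was not particular to dexamethasone-only regions. Partly called regions, those called in 1 to 5 libraries outside the 2 treatment-only sets, had a median fold 0.833 ± 0.063 higher far from constitutive regions than near them (SD, n = 6 libraries, higher in 6 of 6). In the 3 dexamethasone libraries the far-minus-near gap of dexamethasone-only regions departed from that of partly called regions by −0.055 ± 0.11 (SD, n = 3, exact sign-flip permutation p = 0.5).

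The share of regions without a call in the other treatment fell with strength in both treatments. The shares use the calls that chose the members and are given as a description, with no test. Regions called in 3 of 3 libraries of a treatment, with no other constitutive region within 10 kb, were grouped by their mean percentile, with isolated constitutive regions now included. Between the 50th and 75th percentile, 43 of 7303 such regions (0.589%, exact binomial 95% interval 0.426 to 0.792%) called in every dexamethasone library had no ethanol peak. In the mirrored case, 0 of 7424 regions called in every ethanol library lacked a dexamethasone peak, which allows a share of up to 0.0497% (upper end of the exact interval). Between the 25th and 50th percentile the shares were 172 of 6818 (2.52%) and 95 of 7205 (1.32%). Between the 10th and 25th they were 185 of 2042 (9.06%) and 192 of 2336 (8.22%), and their intervals overlapped. Below the 10th they were 52 of 239 (21.8%) and 50 of 282 (17.7%), again with overlapping intervals. In the strongest band 1 of 8176 regions had no ethanol peak and 0 of 8304 no dexamethasone peak, also with overlapping intervals. The intervals cover counting of regions only and hold no spread between libraries.

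**Figure D2:**
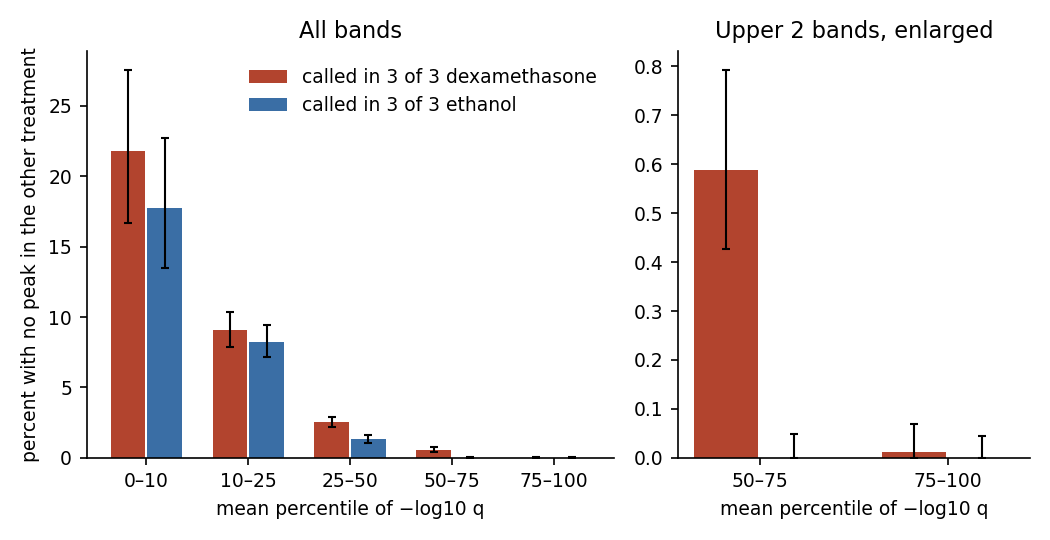
Percent of regions called in every library of a treatment, and isolated from other constitutive regions, that had no peak in the other treatment (vertical axis), by mean percentile of −log10 q (horizontal axis); error bars are exact binomial 95% intervals. In the enlarged right panel the 50 to 75 band holds 0.589% for dexamethasone and 0 for ethanol.

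The leading member lay on chromosome 17 at 80091919 to 80092424. Its fold enrichment was 12.5, 11.8 and 13.6 in dexamethasone replicates 1 to 3 and its percentile 86.5, 82.2 and 90.2, with no peak in any ethanol library. It was the only member above the 75th percentile on average. The nearest constitutive region, 19.7 kb away, was also its nearest region of any kind, and of 4 regions within 50 kb 3 were constitutive and 1 was called in more dexamethasone than ethanol libraries. The member ranked next, on chromosome 6 at 30894463 to 30894850, had folds of 9.04, 9.55 and 13.2, the highest in replicate 3. All 7 regions within 50 kb of it were constitutive, that is, called in all 6 libraries. Whether their signal differed between treatments was not tested.

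The member on chromosome 16 at 23373774 to 23374378 showed the opposite setting. Its folds were 12.1, 10.2 and 9.45 and its peaks were wide, 605, 585 and 550 bp. It lay 60.9 kb from constitutive chromatin, and none of the 7 regions within 50 kb was constitutive: 4 were called in more dexamethasone libraries, 2 in more ethanol libraries and 1 equally. The strongest of those 7, called in 1 ethanol library, had a percentile of 21.4, so the site stood alone among weak peaks.

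Chromosome 2 held 5 of the 20 leading members. The member at 10482399 to 10483097 had the lowest mean fold of the 20, 6.75, 6.67 and 7.24 per replicate, over the widest peaks, 622, 636 and 683 bp. A near dexamethasone-only region, at 10529746 to 10530313 with a mean percentile of 60.5, lay 47.3 kb away. The member at 102664892 to 102665325 had folds of 9.81, 8.10 and 10.7. Of 10 regions within 50 kb of it, 6 were constitutive and the other 4 all had more dexamethasone than ethanol calls, among them the weaker member at 102699193 to 102699962 (mean percentile 19.2). The remaining ones on this chromosome were at 30401478 to 30401984 (8.41, 7.14 and 9.23-fold), at 62651991 to 62652542 (10.6, 8.98 and 7.23-fold) and at 207998643 to 207999137 (7.88, 8.75 and 7.76-fold). In each of these 3, another library gave the highest fold: replicate 3, replicate 1 and replicate 2.

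Chromosome 3 held 4 of the 20. At 64328595 to 64329038 the folds were 11.1, 7.69 and 9.11, and constitutive chromatin was 102 kb away, the farthest of the 20. An ethanol peak nevertheless lay 1.89 kb away, in a weak region (mean percentile 6.91) called in 2 ethanol libraries and 1 dexamethasone library. At 185363692 to 185364164 the folds were 7.25, 10.1 and 8.92. At 71259546 to 71260111 they were 9.45, 6.52 and 9.93, and the percentile ran from 37.7 in replicate 2 to 77.5 in replicate 3, the widest spread among the 20. At 101849051 to 101849464 they were 10.1, 8.58 and 9.95. Replicate 2 was the lowest library at 3 of these 4 sites.

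The other leading members were spread over 7 chromosomes. On chromosome 15, 90559057 to 90559405 had folds of 9.11, 7.96 and 8.14, and on chromosome 4, 57594699 to 57595094 had 9.33, 13.1 and 7.74, the largest spread of fold among the 20 (10.1 ± 2.8, SD, n = 3). On chromosome 6, 25006689 to 25007174 had 10.1, 10.8 and 7.92, and the nearest ethanol peak was 64.2 kb away. Both regions within 50 kb of that site were weak and called in 1 dexamethasone library alone. On chromosome 12, 118240828 to 118241167 had 8.92, 7.92 and 9.61. On chromosome 7, 107949354 to 107949760 had 8.02, 9.54 and 9.33, and 50569941 to 50570394 had 7.17, 7.92 and 8.47 with only constitutive regions, 2 of them, within 50 kb. On chromosome 16, 11318046 to 11318439 had 10.1, 7.56 and 6.56. On chromosome X, 106943556 to 106943977 had 10.2, 7.91 and 10.8 in a crowded stretch: of 14 regions within 50 kb 7 were constitutive and 5 had more dexamethasone than ethanol calls, of which 2 were themselves dexamethasone-only.

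The surroundings of the 20 leading members, which were taken for their strength, varied. Their lowest fold in a single library was 6.52, and their summits in the 3 libraries lay within 9 to 174 bp of each other. For 18 of the 20 the nearest ethanol peak was over 10 kb away. Counted around each of the 20 within 50 kb and summed, 111 neighbouring regions comprised 52 constitutive ones, 38 called in more dexamethasone and 17 in more ethanol libraries, and 4 called equally. Of the 38, 5 were themselves dexamethasone-only. Among the 17 were ethanol-only regions on chromosome 16 at 23347296, chromosome 7 at 107992166 and chromosome X at 106959643. Among all partly called regions, which leave out treatment-only ones, 15079 had more dexamethasone calls and 17706 more ethanol calls. The difference between these counts was not tested.

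**Figure D3:**
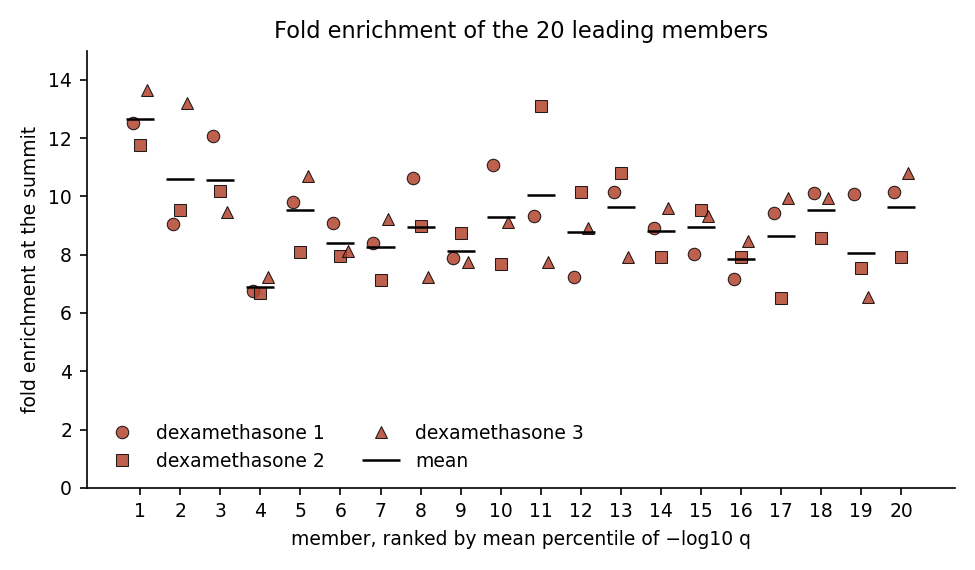
Fold enrichment at the summit (vertical axis) of the 20 leading members, ordered by mean percentile of −log10 q (horizontal axis), with 1 symbol per dexamethasone library and a line at the mean. Mean folds run from 6.89 to 12.6 and every symbol lies at 6.52 or above; the ethanol libraries had no peak at these sites.

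Members lay at a median of 26.1 kb from constitutive chromatin (25th to 75th percentile 16.7 to 50.04 kb). The share of far regions that were dexamethasone-only went from 2.19% at 10 to 20 kb (171 of 7794) to 1.94% at 20 to 50 kb, 1.80% at 50 to 100 kb and 1.13% beyond 100 kb (42 of 3732). Ethanol-only shares in the same bins were 1.35%, 1.60%, 1.43% and 0.991%, so both sets were scarcest beyond 100 kb. Strength did not follow distance over the 453 members (Spearman −0.044, a description over regions of the same libraries). Members at 50 to 100 kb had the highest median percentile, 29.7, and those beyond 100 kb the lowest, 18.003, with 6 of 72 and 2 of 42 above the 50th percentile.

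The 3 regions on either side of the 10 kb limit are given as a description. Just outside were regions on chromosome 1 at 149615610 (9.94 kb; folds 6.30, 6.13 and 5.08), chromosome 10 at 71224639 (9.93 kb; 5.05, 4.93 and 3.94) and chromosome 14 at 51124947 (9.92 kb; 5.67, 5.06 and 4.78). Just inside were regions on chromosome 2 at 69066423 (10.1 kb; folds 4.62, 5.34 and 4.12), chromosome 1 at 205335087 (10.2 kb; 7.71, 7.95 and 9.23) and chromosome 9 at 77375125 (10.2 kb; 5.67, 7.31 and 4.78). Only the second of those inside lay above the 50th percentile.

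The 3 members farthest from constitutive chromatin had weak company close by. On chromosome 5, 124820912 to 124821277 lay 441 kb from a constitutive region, with folds of 7.14, 6.75 and 6.63. Its neighbours at 0.465 and 1.02 kb were called in all 3 dexamethasone libraries and in 1 and 2 ethanol libraries, so the signal beside this member also passed the threshold in part after vehicle. The nearer neighbour ended at 124820858, shortly before this member. With gaps of 100 bp merged they form a single region with an ethanol call, which is no longer dexamethasone-only. On chromosome X, 12326594 to 12326882 and 12327672 to 12328094 lay 393 and 392 kb away and only 1.15 kb from each other. Their folds were 6.65, 5.21 and 4.91, and 5.40, 4.29 and 5.79. Between them sat a region called in 1 ethanol library alone, while neither member itself overlapped an ethanol peak.

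Absence of other called regions was more marked elsewhere. No region of any library lay within 10 kb of 238 members (52.5%) or within 50 kb of 22. Such isolation was not particular to members. Of 337 far ethanol-only regions, 218 (64.7%) had no region within 10 kb and 28 had none within 50 kb. The rule itself keeps constitutive regions more than 10 kb away. The 22 members had a median percentile of 25.03, from 4.74 to 47.7, so none was among the strong members. The most isolated lay on chromosome 18 at 58039965 to 58040215, 319 kb from any other region, with folds of 6.30, 5.21 and 5.38. Next came chromosome 13 at 75465864 to 75466179, 282 kb away (6.61, 4.90 and 5.68-fold), and chromosome 3 at 148097603 to 148097846, 221 kb away (5.98, 4.90 and 5.98-fold). Replicate 2 had the lowest fold at each of these 3. At the other end, an ethanol peak lay within a gap of 1 kb for 46 members (10.2%). Their median percentile was 22.3, against 24.6 for the other 407, and 2 of the 44 strong members were among them.

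The median distance from a member to the nearest ethanol peak of any strength was 13.0 kb (25th to 75th percentile 5.20 to 22.3 kb), and 286 members (63.1%) had none within 10 kb. For far ethanol-only regions the median distance to the nearest dexamethasone peak was 15.8 kb, and 235 of 337 (69.7%) had none within 10 kb. The limit of 10 kb from constitutive regions, which hold peaks of both treatments, fixes part of these distances.

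Members were wide for their strength. Among peaks between the 25th and 50th percentile of their list, members had median widths of 304.5, 298 and 295.5 bp in dexamethasone replicates 1 to 3 (158 to 182 peaks per library). Isolated constitutive peaks of the same band had 275, 281 and 278 bp. Far ethanol-only peaks in ethanol replicates 1 to 3 had 246, 256 and 257.5 bp (91 to 110 peaks), against 281, 284 and 280 bp for isolated constitutive peaks there. Members were thus 21.3 ± 7.1 bp wider than isolated constitutive peaks, and far ethanol-only peaks 28.5 bp narrower (−28.5 ± 6.3, SD, n = 3 libraries each), with no overlap between treatments. The difference of 49.8 bp had an exact two-sided permutation p of 0.1, the smallest possible. It was 30.2 bp without dexamethasone replicate 3 and 21.7 bp with regions chosen over equally numbered pairs of libraries. Both region sets were chosen by the calls of these libraries and were not chosen anew in each regrouping. The p-values for width and fold at equal strength are therefore given as a description. Partly called far peaks of the band had median widths of 250, 257 and 257 bp in dexamethasone replicates 1 to 3 and 254, 258 and 261 bp in ethanol replicates 1 to 3. Far ethanol-only peaks were thus about as narrow as other far peaks outside the constitutive set, while members were wider than those in each dexamethasone library. Near dexamethasone-only peaks of the band were as wide (309, 306.5 and 306 bp), so width was not particular to the far regions.

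The same order held for weaker and stronger peaks. Up to the 25th percentile, members were 10 ± 4.6 bp wider than isolated constitutive peaks and far ethanol-only peaks 24.2 bp narrower (−24.2 ± 2.3, SD, n = 3 each, exact permutation p = 0.1). Between the 50th and 75th percentile members were 43.3 ± 12.9 bp wider (SD, n = 3), while the ethanol values rest on 2 to 6 peaks per library. Fold enrichment of members minus that of isolated constitutive peaks was −0.21 ± 0.053 in the 25 to 50 band, and that of far ethanol-only peaks −0.17 ± 0.078 (SD, n = 3 each, exact permutation p = 0.7). Up to the 25th percentile the values were −0.32 ± 0.15 and 0.059 ± 0.067, which did not overlap (SD, n = 3 each, exact permutation p = 0.1). Whether peak width and −log10 q are tied by the peak caller was not tested.

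**Figure D4:**
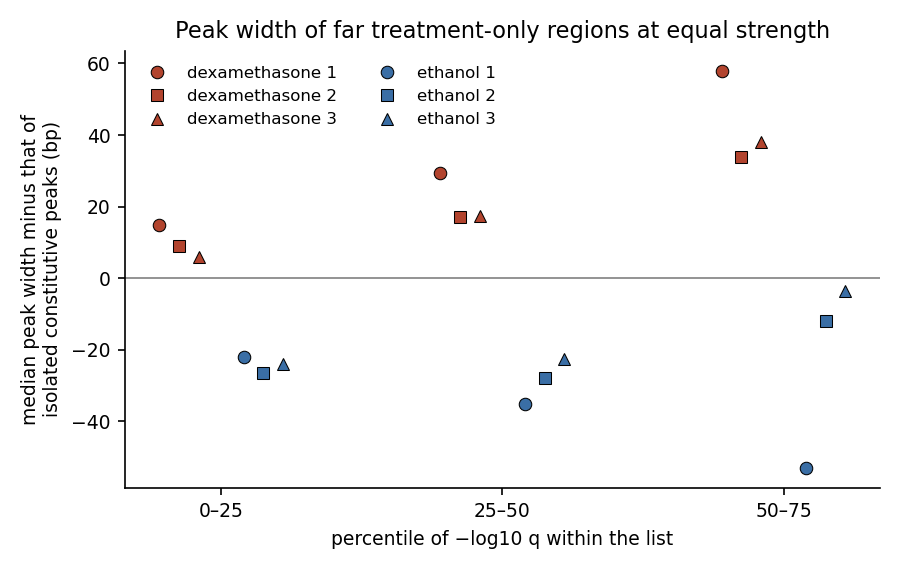
Median peak width of far treatment-only regions minus that of isolated constitutive peaks of the same library (vertical axis, bp), in 3 bands of the percentile of −log10 q (horizontal axis), 1 symbol per library. All dexamethasone symbols lie above 0 and all ethanol symbols below; the ethanol symbols of the 50 to 75 band rest on 2 to 6 peaks each.

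The distance between summits of the 3 libraries was measured within each member. The span between the outermost of the 3 summits had a median of 51 bp (75th percentile 91 bp, highest 444 bp) and was at most 50 bp for 226 members (49.9%). It was 33.5 bp for the 44 strong members and 55 bp for the others. The merged regions were 211 to 1019 bp wide, with a median of 351 bp, and 11 members held more than 1 peak of the same library.

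Weaker peaks around members leaned towards dexamethasone. For each library, the share of its partly called peaks lying within 50 kb of a member was taken, which leaves out the members, the other treatment-only regions and the constitutive regions. It was 3.36%, 3.11% and 3.16% in dexamethasone replicates 1 to 3 and 2.86%, 2.81% and 2.81% in ethanol replicates 1 to 3. All dexamethasone libraries lay above all ethanol libraries, by 0.382 percentage points on average (exact two-sided permutation p = 0.1, n = 3 each, the smallest possible). The windows lie around regions chosen by the calls of these same libraries, and the choice was not redone when libraries were regrouped. The shares and p-values around treatment-only regions are therefore given as a description. Of the 1193 partly called regions in these windows, 547 (45.9%) had more dexamethasone than ethanol calls, against 37.8% of all partly called regions. The gap was 0.207 points within 25 kb and 0.638 points within 100 kb (exact permutation p = 0.1 each, n = 3). Within 10 kb it was 0.128 points and the groups overlapped (exact permutation p = 0.2, n = 3 each). It was 0.190 points for regions over 20 kb from constitutive chromatin and 0.590 points without dexamethasone replicate 3. With regions chosen over equally numbered pairs of libraries it was 0.567 points, with overlapping groups (exact permutation p = 0.2, n = 3 each). That choice asks for fewer calls, and the test itself stayed unpaired.

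Around near dexamethasone-only regions the shares within 50 kb were 4.21%, 3.79% and 3.70% in the dexamethasone libraries and 3.65%, 3.65% and 3.66% in the ethanol libraries, a gap of 0.248 points (exact permutation p = 0.1, n = 3 each). Around far ethanol-only regions they were 1.79%, 1.87% and 1.98% against 1.77%, 1.91% and 1.81%, which overlapped (0.050 points, exact permutation p = 0.6, n = 3 each). Within 10 kb of far ethanol-only regions, however, the dexamethasone libraries again lay above the ethanol libraries, at 0.419 ± 0.022% against 0.369 ± 0.030% (SD, n = 3 each, exact permutation p = 0.1). Around near ethanol-only regions the shares within 50 kb were 1.66 ± 0.15% in dexamethasone and 1.53 ± 0.12% in ethanol libraries, which overlapped (SD, n = 3 each, 0.127 points, exact permutation p = 0.4). Of the partly called regions in those windows 42.0% had more dexamethasone calls, against 41.0% around near dexamethasone-only and 38.3% around far ethanol-only regions. Within 10 kb this share was 45.8% around members and 38.1% around near dexamethasone-only regions. It was 44.9% around far and 43.9% around near ethanol-only regions. The lean is therefore not shown to be particular to dexamethasone-only regions, and the differences between the groups were not tested.

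**Figure D5:**
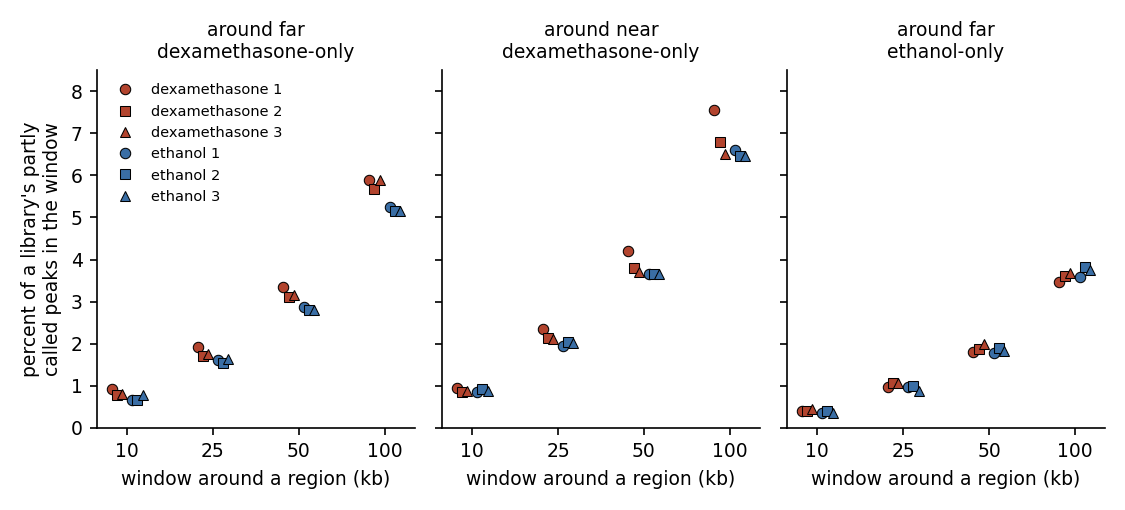
Percent of each library's partly called peaks (vertical axis) lying within 10, 25, 50 or 100 kb (horizontal axis) of far dexamethasone-only, near dexamethasone-only and far ethanol-only regions, 1 symbol per library. At 50 kb in the left panel the dexamethasone libraries lie at 3.11 to 3.36% and the ethanol libraries at 2.81 to 2.86%.

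Most members had no other dexamethasone-only region within 50 kb. One lay that close for 67 of 453 members (14.8%, exact binomial 95% interval 11.6 to 18.4%), a share like that of near dexamethasone-only regions (66 of 444, 14.9%). Of far ethanol-only regions, 11 of 337 (3.26%, interval 1.64 to 5.77%) had another ethanol-only region that close, in a sparser set (538 ethanol-only against 897 dexamethasone-only regions), so the shares are not comparable as such. Both intervals take regions as independent, although a region lying close to another makes the reverse true as well. They are therefore descriptive and hold no spread between libraries. Counting members alone, 46 had another member within 50 kb, and these formed 22 runs, 20 of them pairs. The run of 3 on chromosome 7, from 107875443 to 107949760, had its strongest member at 1 end: mean percentiles were 23.1, 11.1 and 58.7, with mean folds of 5.80 ± 0.65, 4.69 ± 0.43 and 8.96 ± 0.82 (SD, n = 3). The run of 3 on chromosome 10, from 114092282 to 114121998, was weak throughout, with mean percentiles of 9.86, 21.4 and 10.7. Of the 20 pairs, that on chromosome 13 from 45428577 to 45445072 had the strongest weaker member, with mean percentiles of 42.8 and 49.9.

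Members were found on every chromosome with called regions. Chromosome 16 had the highest share of far regions that were members, 24 of 766 (3.13%, exact binomial 95% interval 2.02 to 4.63%), and chromosome 14 the lowest, 6 of 775 (0.774%, interval 0.285 to 1.68%), against 1.86% over all. On chromosome 11, 23 members stood beside 6 far ethanol-only regions among 1008 far regions, and on chromosome 14, 6 beside 14. These chromosomes were picked for their values among 24, so their intervals are descriptive.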

How the data were processed

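The data were 6 peak lists, 1 per library, in hg19 coordinates. Per the submitters' processing notes, CASAVA 1.3, Bowtie, bedtools and MACS2 2.1.0 were used, with settings not given in the sources used here. Peak names in the files are numbered anew in every list, as with a separate call per library. Per the layout of the deposited files, the authors' values are a fold enrichment (a linear ratio at the summit), a −log10 p and a −log10 q per peak. The deposited score, the −log10 q multiplied by 10, and the −log10 p were not used. A summit offset is also given. Positions count from 1.

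Peaks sharing at least 1 bp were merged in Python 3.11.15 (pandas 2.3.3, NumPy 2.4.6). Distances run between centres. Where a library had several peaks in a region, that with the highest −log10 q was used. Libraries were compared by exact permutation over libraries, whose smallest p is 0.1 for 3 against 3 and 0.25 for sign flips over 3. These p-values measure only the spread between libraries, and regions were not chosen anew when libraries were regrouped. The regions, their 10 kb limit, and the tests were chosen with earlier results of these data known. The ratio to ethanol-only regions, the shares of neighbouring peaks and the widths at equal strength were added after the values were seen. The regions named are the 20 with the highest mean percentile, the 3 farthest from constitutive regions, 3 on each side of the limit, and runs of at least 3 with steps of at most 50 kb; the 3 most isolated regions, the pair on chromosome 13 and the chromosomes were picked after their values were seen. Merging and tests were checked on simulated lists.

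Equally numbered libraries deviated together. Deviations of log2 −log10 q from the treatment mean, over constitutive regions, correlated at 0.216, 0.129 and 0.162 between libraries of equal number and at −0.175 to −0.0065 between others. Deviations from a treatment mean cancel within the treatment, so the negative values follow from the positive ones and are no separate evidence. Because of the positive values, the numbers, from the titles, were read as possible pairs. The count with that block stands beside the main one. The block changes only which regions are chosen. It asks for fewer calls and admits regions with peaks in both treatments, and comparisons between treatments stayed unpaired. The planned motif search and distances to gene starts need hg19 sequence and annotation, which were not used here.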

Additional observations from a re-analysis of the deposited data

How the results depend on the processing

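Alternatives raised the −log10 q minimum to 5, merged gaps of 100 bp, or asked a peak to cover 50% of its region; further ones were lists of one length, far limits of 5 and 20 kb, distance between edges, constitutive regions defined by the 3 ethanol libraries, autosomes only, each library left out, and a replicate block. The 453 far regions became 282 with the 20 kb limit, 1972 with the replicate block and 602 to 863 without 1 library. The ratio to far ethanol-only regions, 1.34, was 1.56 with lists of one length, 0.843 with the replicate block and 0.684 to 1.42 without 1 library; it has no value where constitutive regions were defined by ethanol, nor has the width comparison with ethanol-only regions. Members above the 50th percentile numbered 23 to 82 over all alternatives, and far ethanol-only regions 0 to 8. The far-minus-near percentile (0.049) was −0.29 for autosomes, −0.53 with 50% cover, −0.017 between edges, −0.97 with the 5 kb limit, −0.65 with gaps merged, −0.15 with lists of one length, −0.93 with the replicate block and −1.63 to 0.46 without 1 library. The far-minus-near width (0.5 bp) was −3.17 with the stricter q, −0.83 with ethanol-defined constitutive regions, −2.33 with gaps merged and with the replicate block, −1.5 with lists of one length and −8 to 0.25 without 1 library. Neither has a settled sign. The far-minus-near fold and the comparisons of neighbouring peaks and widths kept their direction in every alternative run. The distance to an ethanol peak (13.0 kb) was 17.5 and 8.60 kb with the 20 and 5 kb limits, 8.17 kb with the replicate block and 13.4 to 15.04 kb without 1 library. The share of members with another dexamethasone-only region within 50 kb (14.8%) was 24.6% with the replicate block and 6.40% within 20 kb. Of the 20 leading members, 9 remained in the set with the 20 kb limit, 19 with autosomes only, 19 without ethanol replicate 1 and 20 in the other alternatives. The motif and gene-start alternatives were not run. Read depth, which limits which weak peaks are called, is unknown.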
